A study of Mus musculus with 2 samples.

Results

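Ccr2, the receptor that draws monocytes toward injured tissue, and the 4 chemokine genes listed as its ligands in the mouse, Ccl2, Ccl7, Ccl8, and Ccl12, were examined in immune cells of the heart. The 5 genes were taken by name from 23946 genes counted in the 2 libraries. Female WT C57BL/6J mice aged 8 to 16 weeks received 1 i.p. injection of isoproterenol (ISO, a β-adrenergic agonist) at 200 mg/kg or the vehicle PBS, and live CD45+ cells were sorted from the hearts 24 hours later for scRNA-Seq. The cells of 3 mice were pooled and 15000 cells were loaded per library, so there is 1 control library (labelled Control) and 1 ISO library (labelled TTS, for Takotsubo syndrome, the acute heart failure that the model mimics). With 1 library per group no test was possible, and every interval given here is a 95% interval that covers counting error only.

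CCR2 is a G protein-coupled receptor on classical monocytes, and the cells follow its ligands out of bone marrow and into injured tissue. CCL2 is the best known ligand, CCL7 also engages CCR1 and CCR3, CCL8 in the mouse acts mainly through CCR8, and CCL12 is a close relative of CCL2 found in mice. In the heart, resident macrophages are long lived and mostly lack CCR2, whereas macrophages that derive from recruited monocytes carry it. The ligand genes lie side by side on chromosome 11 (GRCm38, plus strand), with Ccl2 at 82035571 to 82037453, Ccl7 at 82045712 to 82047525, Ccl12 at 82101845 to 82103400, and Ccl8 at 82115185 to 82116799, and they span 81.2 kb with Ccl11 between Ccl7 and Ccl12. Ccr2 lies on chromosome 9 at 124101950 to 124113557, on the plus strand, in a row with Ccr1 and Ccr3.

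Ccl12 and Ccl8 are shown by their promoters because these neighbors differed in opposite directions between the libraries. The letters are the 250 bases before each gene start in RefSeq (GRCm38.p6, plus strand, chr11:82101595-82101844 for Ccl12 and chr11:82114935-82115184 for Ccl8), and capitals mark the 3 runs of 8 bases that both windows hold at nearly the same distance from the start.
Ccl12: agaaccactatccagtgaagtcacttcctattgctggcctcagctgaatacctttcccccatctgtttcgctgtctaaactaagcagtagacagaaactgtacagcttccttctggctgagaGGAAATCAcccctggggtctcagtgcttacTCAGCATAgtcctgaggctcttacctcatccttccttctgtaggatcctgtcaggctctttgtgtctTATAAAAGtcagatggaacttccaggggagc
Ccl8: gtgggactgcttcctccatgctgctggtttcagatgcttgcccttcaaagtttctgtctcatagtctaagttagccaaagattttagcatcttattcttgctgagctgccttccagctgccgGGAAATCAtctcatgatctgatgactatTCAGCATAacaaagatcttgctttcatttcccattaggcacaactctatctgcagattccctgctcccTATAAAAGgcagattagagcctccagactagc
The run nearest to the start, TATAAAAG, has the letters of a TATA box and begins 31 bases before the start of Ccl12 and 32 bases before that of Ccl8, and 1.06% of 32851 promoter windows of this length hold it on the same strand. The run GGAAATCA begins 128 bases before both starts (0.472% of windows), and TCAGCATA begins 98 and 100 bases before them (0.210%). Neither window held the letters TGANTCA (an AP-1 pattern, in 6.75% of windows) or TTGCNNAA (C/EBP, 9.56%) on either strand. Letter matches of this kind are descriptions and were not tied to binding in these cells.

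After the cell filters, 5641 control barcodes with a median of 4790 UMIs and 5437 ISO barcodes with a median of 8537 UMIs remained, and the libraries had 15 barcodes in common. Levels are given as CPM, that is, the summed UMIs of a gene in a class scaled to all UMIs of that class. Barcodes were gated into classes by lists of marker genes, none of which is Ccr2 or a ligand, and barcodes that passed the gates of more than 1 lineage were kept apart. Macrophage-like barcodes comprised 961 of the control and 2535 of the ISO library, split into resident macrophage-like (646 and 288, with Lyve1, Folr2, and Cd163 among their leading genes), Arg1-high macrophage-like (6 and 1887, with Arg1, Spp1, and Fn1), and other macrophage-like barcodes (309 and 360). Arg1-high barcodes had to pass the limit of the Arg1-high list but not the macrophage limit, unlike resident and other macrophage-like barcodes. A barcode that passed both the resident and the Arg1-high gates was counted as resident macrophage-like. The Arg1-high class thus came almost entirely from 1 library and may partly be that library. Barcodes of more than 1 lineage numbered 1453 in the control and 972 in the ISO library, and in the ISO library 388 barcodes lay within 20% of the macrophage limit and 367 within 20% of the Arg1-high limit.

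Over all kept barcodes, Ccr2 was higher in the ISO library, and so were Ccl2, Ccl7, and Ccl12, whereas Ccl8 was lower. Ccr2 had a control level of 211 CPM (8802 UMIs) and an ISO level of 707 CPM (39212 UMIs), a log2 ratio of 1.74 (1.71 to 1.78). Ccl2 had the largest difference of the ligands, with 426 CPM against 4306 CPM and a log2 ratio of 3.34 (3.32 to 3.36). Ccl7 went from 178 CPM to 968 CPM (log2 ratio 2.45) and Ccl12 from 134 CPM to 331 CPM (log2 ratio 1.31). Ccl8 was scarce, with a control level of 4.42 CPM (184 UMIs) and an ISO level of 1.59 CPM (88 UMIs), a log2 ratio of -1.47 (-1.86 to -1.10). Of the 5 genes, 4 were at least 2-fold higher and 1 at least 2-fold lower. Among 15976 genes with at least 20 UMIs, 6.9% were at least 2-fold higher and 31.5% at least 2-fold lower, and the median log2 ratio of all genes was -0.52.

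In the control heart, the classes with the highest Ccr2 level were not those with the highest ligand levels, although other macrophage-like barcodes held both. Ccr2 was highest in ILC2-like barcodes (1072 CPM, 1005 to 1141) and in classical monocyte-like barcodes (1064 CPM, 974 to 1161), whose intervals overlapped. The cDC2-like barcodes followed at 820 CPM (740 to 907). Plasmacytoid DC-like (443 CPM), NK cell-like (395 CPM), cDC1-like (387 CPM), and other macrophage-like barcodes (383 CPM) had overlapping intervals, and T cell-like barcodes lay below them at 305 CPM. Nonclassical monocyte-like (121 CPM) and resident macrophage-like barcodes (117 CPM) were low, and B cell-like (8.52 CPM) and neutrophil-like barcodes (8.44 CPM, 3 UMIs) were lowest among classes of leukocytes with at least 20 barcodes. The Ccr2 UMIs of the resident macrophage-like class were uneven, since 90.4% of them were in the richest 10% of its barcodes.

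The ligands were highest in macrophage-like barcodes. Resident macrophage-like barcodes of the control library had the highest level among the single classes of Ccl2 (951 CPM, 925 to 978), Ccl7 (441 CPM, 423 to 460), Ccl12 (313 CPM, 298 to 328), and Ccl8 (17.2 CPM, 13.8 to 21.2). Other macrophage-like barcodes were next for Ccl2 (631 CPM) and Ccl7 (209 CPM). For Ccl12, nonclassical monocyte-like barcodes (276 CPM, 235 to 322) had an interval that overlapped those of resident macrophage-like and of other macrophage-like barcodes (229 CPM, 210 to 249), but all 159 Ccl12 UMIs of the nonclassical class were in 9 of its 84 barcodes. Classical monocyte-like barcodes, the richest in Ccr2 of the myeloid classes with at least 20 barcodes, held little ligand, with 79.3 CPM of Ccl2 (38 UMIs), 6.26 CPM of Ccl7 (3 UMIs), 8.35 CPM of Ccl12 (4 UMIs), and no UMI of Ccl8. In B cell-like barcodes, which served as a gauge of free RNA, Ccl2 was at 10.2 CPM, Ccl7 at 5.50 CPM, and Ccl12 at 1.65 CPM.

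**Figure D1:**
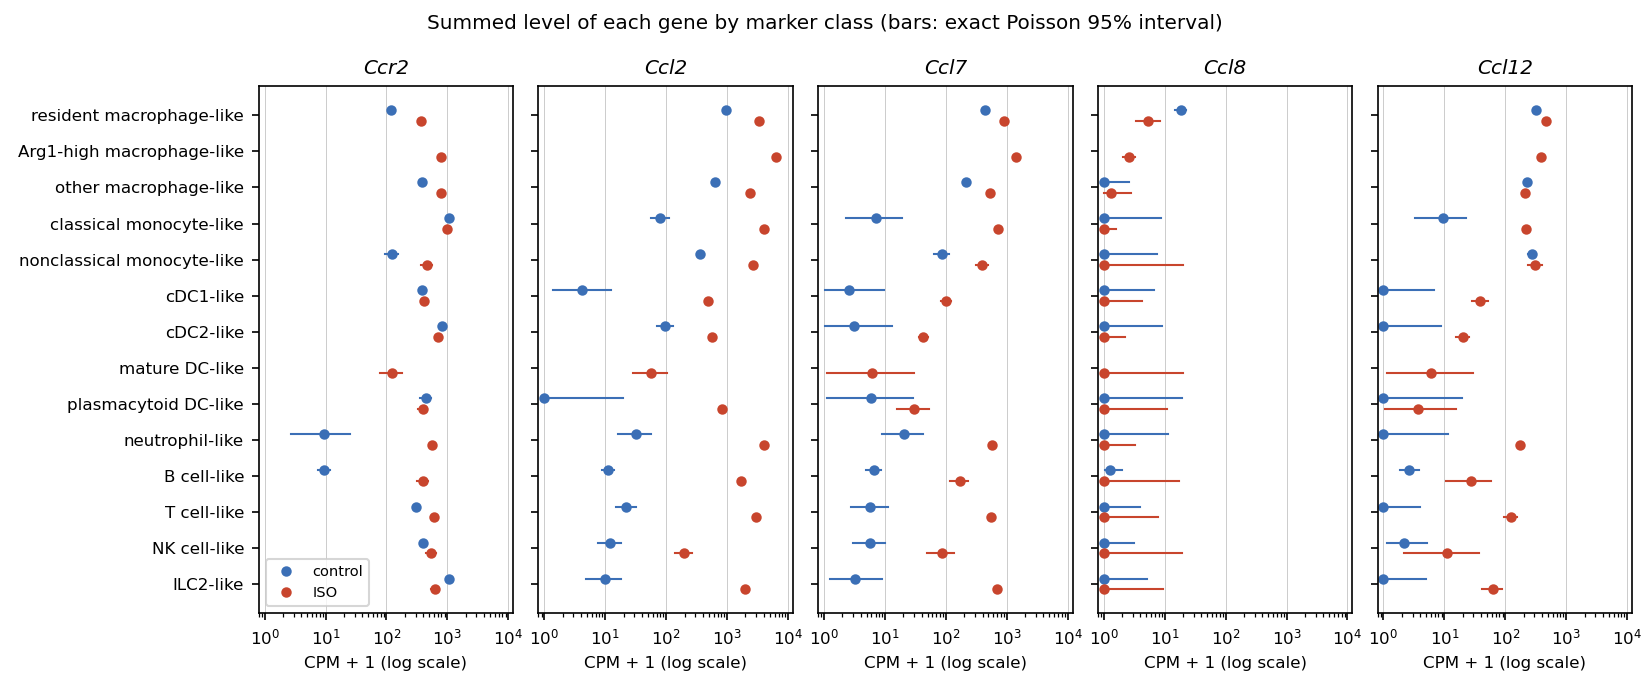
Level of each gene (CPM + 1, log scale) in each marker class with at least 20 barcodes, in the control (blue) and ISO (red) libraries, with bars for exact Poisson 95% intervals. In the control, ligand levels peak in resident macrophage-like barcodes (951 CPM of Ccl2), where Ccr2 is low (117 CPM), and in the ISO library Ccl2 reaches 6255 CPM in Arg1-high macrophage-like barcodes.

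In the ISO library, Ccr2 was highest in classical monocyte-like barcodes (978 CPM, 954 to 1002), close to the control level of that class (log2 ratio -0.12, -0.25 to 0.01). Other macrophage-like (775 CPM) and Arg1-high macrophage-like barcodes (772 CPM) had overlapping intervals, followed by cDC2-like barcodes at 688 CPM. Arg1-high macrophage-like barcodes had the highest levels of Ccl2 (6255 CPM, 6221 to 6290) and Ccl7 (1428 CPM, 1411 to 1444). Both genes are among the 10 leading genes of this class, although neither was used in the gate. That ranking pooled both libraries and set the class against the other single classes, so it also carries the difference between the libraries. By number of molecules, this class held 39.9% of the Ccr2 UMIs, 53.1% of the Ccl2 UMIs, 53.9% of the Ccl7 UMIs, and 42.4% of the Ccl12 UMIs of the ISO library. The class also held 20270388 of the 55443553 UMIs of all genes in that library, so these shares depend on its size.

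Among monocyte-like and macrophage-like classes, classical monocyte-like barcodes had the largest ratios of Ccl2, Ccl7, and Ccl12 between the libraries, while their Ccr2 ratio was within counting error of 0. Ccl2 was at 79.3 CPM in 53 control barcodes and 4077 CPM in 778 ISO barcodes, a log2 ratio of 5.67 (5.23 to 6.18). Ccl7 was at 6.26 CPM and 704 CPM, and Ccl12 at 8.35 CPM and 218 CPM, but the control values rest on 3 and 4 UMIs. Transcripts of the Arg1-high list were also higher, but by a smaller ratio than these ligands, at 3117 CPM in control and 5916 CPM in ISO barcodes of this class. In the 248 classical monocyte-like ISO barcodes with no UMI of Arg1 or Spp1, Ccl2 was at 1819 CPM, Ccl7 at 197 CPM, Ccl12 at 62.4 CPM, and Ccr2 at 1027 CPM. In the 52 such control barcodes, Ccl2 was at 51.9 CPM and Ccr2 at 1094 CPM. The ligand levels of these ISO barcodes lay between those of the whole class and those of the control, and the part of the Arg1-high transcripts in the difference was not tested.

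Resident macrophage-like barcodes had more ligand in the ISO library as well. Ccl2 was at 951 CPM in 646 control and 3379 CPM in 288 ISO barcodes, a log2 ratio of 1.83 (1.78 to 1.88). Ccl7 was at 441 CPM and 896 CPM (log2 ratio 1.02), and Ccl12 at 313 CPM and 464 CPM (log2 ratio 0.57). Resident macrophage-like barcodes were the highest single class for Ccl12 in both libraries, and in the ISO library they lay above Arg1-high macrophage-like barcodes (385 CPM, 376 to 393). Ccr2 was also higher in resident macrophage-like barcodes, at 117 CPM without and 373 CPM with ISO. Transcripts of the Arg1-high list were at 97.5 CPM and 4070.0 CPM in this class, which also takes barcodes that pass the Arg1-high gate. In the 601 control and 100 ISO barcodes of this class that had no UMI of Arg1, Spp1, or Ly6c2, Ccl2 was at 933 CPM and 2827 CPM, respectively, Ccl7 at 439 CPM and 974 CPM, Ccl12 at 310 CPM and 519 CPM, and Ccr2 at 97.6 CPM and 220 CPM.

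Other macrophage-like barcodes behaved differently for Ccl12. Their Ccl2 was at 631 CPM and 2393 CPM (log2 ratio 1.92), and their Ccl7 at 209 CPM and 527 CPM (log2 ratio 1.33). Their Ccl12 was at 229 CPM without and 213 CPM with ISO, a difference within counting error (log2 ratio -0.10, -0.27 to 0.06). Over all macrophage-like barcodes, Ccr2 was at 207 CPM and 725 CPM (log2 ratio 1.81), Ccl2 at 845 CPM and 5464 CPM (2.69), Ccl7 at 366 CPM and 1260 CPM (1.78), and Ccl12 at 284 CPM and 374 CPM (0.40). Thus 3 of the 5 genes were at least 2-fold higher and 1 was at least 2-fold lower, where 8.8% of 12937 genes were at least 2-fold higher and 22.7% at least 2-fold lower. When the level of B cell-like barcodes of the same library was subtracted, the Ccr2 log2 ratio was 0.74. That level was 8.52 CPM in 1951 control barcodes and 394 CPM in 45 ISO barcodes, where all 90 UMIs were in 17 barcodes. How much of what was subtracted in the ISO library was free RNA was not tested.

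Ccl8 was confined to few barcodes and, among the single classes, almost entirely to resident macrophage-like ones in the control library. Of its 184 UMIs there, 89 were in 22 resident macrophage-like barcodes, 92 in barcodes of more than 1 lineage, 2 in B cell-like barcodes, and 1 in a stromal-like barcode. Its level in the resident class was 17.2 CPM without and 4.41 CPM (14 UMIs in 8 barcodes) with ISO, a log2 ratio of -1.92 (-2.89 to -1.14). In Arg1-high macrophage-like barcodes it was at 1.58 CPM, and 16 of the 32 UMIs were in 1 of 1887 barcodes. Classical monocyte-like, DC-like, neutrophil-like, T cell-like, NK cell-like, and ILC2-like barcodes had no UMI of Ccl8 in either library, which at this depth allows up to 0.466 CPM in the classical monocyte-like class of the ISO library, taking 3 UMIs as the limit. As a share of cells, 3.41% of resident macrophage-like barcodes of the control and 2.78% of those of the ISO library had a Ccl8 UMI. After thinning to 1000 UMIs, 9 of 646 and 0 of 288 had one, and 0 of 288 allows up to 1.04% at that depth.

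Barcodes of more than 1 lineage, with median depths of 12431 (control) and 11298.5 UMIs (ISO), held 42.0% and 20.4% of the Ccr2 UMIs, 60.9% and 22.5% of the Ccl2 UMIs, 60.8% and 25.4% of the Ccl7 UMIs, and 58.1% and 35.2% of the Ccl12 UMIs. These UMIs could not be assigned to a class. Of the UMIs of all genes, such barcodes held 19672318 of 41651434 in the control and 12990366 of 55443553 in the ISO library.

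**Figure D2:**
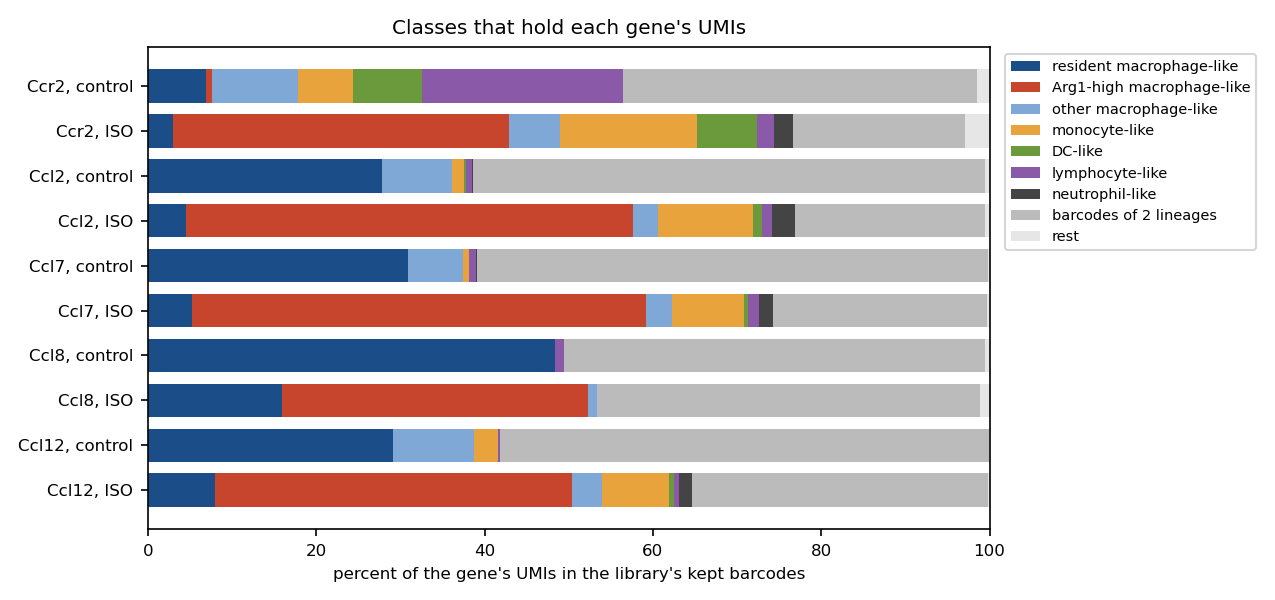
Percent of the UMIs of each gene in each group of classes, for the control and ISO libraries, not scaled to the size of the group. Barcodes of more than 1 lineage hold 60.9% of the Ccl2 UMIs in the control and 22.5% in the ISO library, and Arg1-high macrophage-like barcodes hold 53.1% of the Ccl2 UMIs in the ISO library.

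Lymphocyte-like classes held more of the Ccr2 UMIs in the control than in the ISO library, where these classes were also smaller. B cell-like, T cell-like, NK cell-like, and ILC2-like barcodes together had 23.8% of the Ccr2 UMIs in the control and 2.05% in the ISO library. Of the UMIs of all genes, they had 7274810, 1270119, 1722864, and 905043 of 41651434 in the control. In the ISO library they had 228209, 548870, 202701, and 444116 of 55443553. The shares of Ccr2 UMIs move with these class sizes. ILC2-like barcodes alone had 11.02% of the control UMIs, and other macrophage-like barcodes 10.2%. When barcodes of more than 1 lineage were assigned to their dominant lineage, other macrophage-like barcodes held the most, at 27.2%. The Ccr2 level of ILC2-like barcodes was 1072 CPM in 154 control and 615 CPM in 94 ISO barcodes, a log2 ratio of -0.80 (-1.001 to -0.607), the only lower ratio among lymphocyte-like classes. NK cell-like barcodes had 395 CPM and 543 CPM, and T cell-like barcodes 305 CPM and 603 CPM.

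Ligand UMIs in lymphocyte-like, DC-like, and neutrophil-like barcodes of the ISO library went together with transcripts of the macrophage list, Arg1, Spp1, Fn1, or Csf1r. As gated, Ccl2 was at 4086 CPM in neutrophil-like, 3013 CPM in T cell-like, 1934 CPM in ILC2-like, and 1709 CPM in B cell-like barcodes, and the Arg1-high list was at 5261 CPM and 13254 CPM in the neutrophil-like and 77.2 CPM and 6896 CPM in the T cell-like barcodes of the control and ISO libraries. In the control neutrophil-like barcodes Ccl2 was at 30.9 CPM (11 UMIs). The level of the Arg1-high list is a sum, and which of its genes made it up in each class was not examined. The spread over barcodes differed between classes. The 6524 Ccl2 UMIs of neutrophil-like barcodes were in 126 of 182 barcodes, whereas 1 of 64 plasmacytoid DC-like barcodes had 297 of their 309 Ccl2 UMIs, and without it the level was 32.9 CPM in place of 814 CPM. In a comparison added after these values were seen, barcodes were limited to those with under 5 macrophage list UMIs per 10000 and no UMI of Arg1, Spp1, Fn1, or Csf1r, which left 171 of 925 ISO barcodes in these 8 classes. In them, Ccl2 ranged from 25.5 CPM in cDC1-like to 120 CPM in B cell-like barcodes (2 UMIs in 5 barcodes), against 197 to 4086 CPM as gated. Ccl7 ranged from 0 to 53.0 CPM and Ccl12 from 0 to 20.9 CPM. Whether the ligand UMIs of the barcodes left out came from these cells or from macrophage RNA was not tested.

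Ccr2 remained detected in the ISO library when barcodes outside these limits were left out, in 6 of the 8 classes at levels whose intervals overlapped those as gated. The limited set is a part of each class, so the intervals share UMIs and overlap was favored. In the limited set of the ISO library, Ccr2 was at 704 CPM in cDC2-like barcodes (688 CPM as gated), 572 CPM in ILC2-like (615 CPM), 544 CPM in T cell-like (603 CPM), 424 CPM in NK cell-like (543 CPM), 372 CPM in plasmacytoid DC-like (392 CPM), and 360 CPM in cDC1-like barcodes (410 CPM). Neutrophil-like and B cell-like barcodes had lower levels in the limited set, which left few of them. Neutrophil-like barcodes had 561 CPM as gated and 131 CPM (8 UMIs in 15 barcodes) in the limited set, and B cell-like barcodes had 394 CPM as gated and no UMI in 5 barcodes. In the limited control set, Ccr2 was at 1010 CPM in ILC2-like (1072 CPM as gated), 721 CPM in cDC2-like (820 CPM), 420 CPM in NK cell-like (395 CPM), and 320 CPM in cDC1-like barcodes (387 CPM). It was lower than as gated, with intervals apart, in plasmacytoid DC-like barcodes (241 CPM, 167 to 337, against 443 CPM, 356 to 545) and T cell-like barcodes (209 CPM, 179 to 242, against 305 CPM, 275 to 337).

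**Figure D3:**
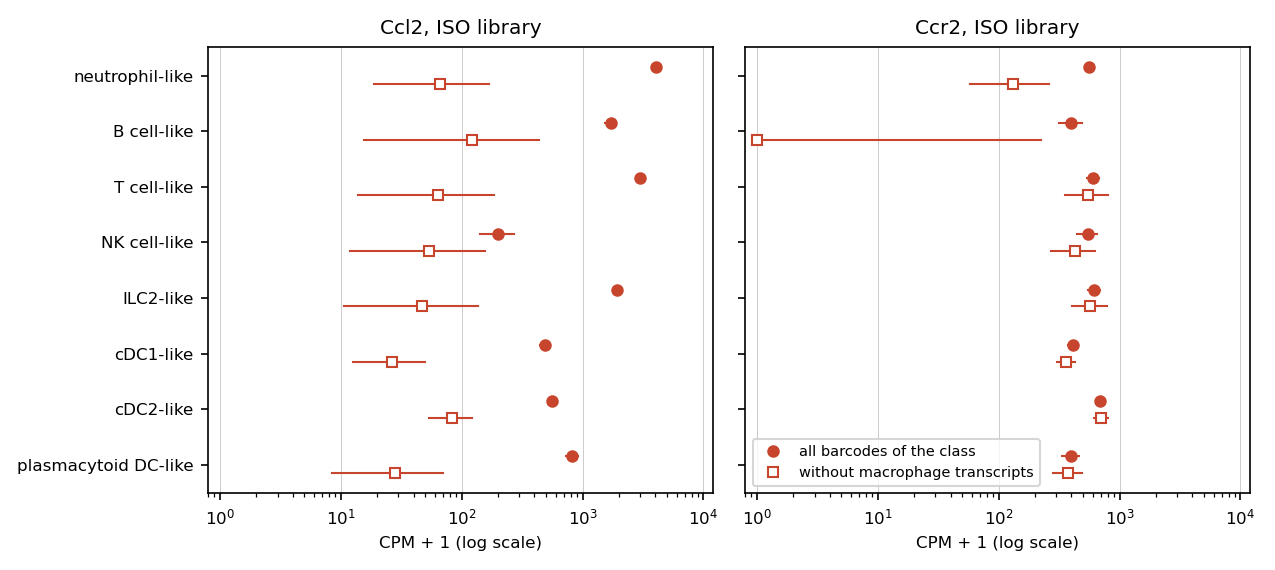
Ccl2 and Ccr2 levels (CPM + 1, log scale) in 8 classes of the ISO library, with exact Poisson 95% intervals. Filled circles are all barcodes of the class. Open squares, labelled as without macrophage transcripts, are the set limited by the macrophage list, Arg1, Spp1, Fn1, and Csf1r. Ccl2 ranges from 197 to 4086 CPM in all barcodes and from 25.5 to 120 CPM in the limited set, whereas Ccr2 of T cell-like barcodes is at 603 and 544 CPM.

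Shares of cells with a UMI were compared at 1 depth. After each barcode was thinned to 1000 UMIs, Ccr2 was found in 54.7% of classical monocyte-like barcodes of the control (40.5% to 68.4%) and 60.4% of those of the ISO library (56.9% to 63.9%), in 59.7% and 46.8% of ILC2-like barcodes, and in 4.80% and 19.8% of resident macrophage-like barcodes. Ccl2 was found in 35.4% and 61.8% of resident macrophage-like barcodes, in 9.43% and 59.4% of classical monocyte-like barcodes, and in 80.5% of Arg1-high macrophage-like barcodes of the ISO library. Ccl7 was found in 19.3% and 35.1% of resident macrophage-like and 39.5% of Arg1-high macrophage-like barcodes, and Ccl12 in 16.4%, 20.1%, and 18.1% of the same barcodes. The lymphocyte-like barcodes of the limited set, as the background, had a Ccl2 UMI in 1.02% of 1762 control and 7.84% of 51 ISO barcodes, with median depths of 3428.5 and 3483 UMIs before thinning. Without thinning, a Ccl2 UMI was found in 63.2% and 84.4% of resident macrophage-like barcodes.

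In single cells, Ccl7 and Ccl12 were found more often in barcodes with Ccl2 than in those without it. Of Arg1-high macrophage-like barcodes with a Ccl2 UMI, 47.2% also had a Ccl7 UMI, against 7.61% of those without Ccl2. The same shares were 50% and 10.9% in resident macrophage-like and 37.7% and 3.16% in classical monocyte-like barcodes of the ISO library, and 35.4% and 10.6% in resident macrophage-like barcodes of the control. Ccl12 followed Ccl2 in the same way, with 21.2% of Arg1-high macrophage-like barcodes with Ccl2 and 5.43% of those without. Ccl2 was found in 81.2% of Arg1-high macrophage-like barcodes with a Ccr2 UMI and in 79.7% of those without, and in 60.4% and 57.8% of classical monocyte-like ISO barcodes. The gap was wider in other macrophage-like barcodes of the ISO library (51.8%, 44.0% to 59.5%, and 42.1%, 35.0% to 49.5%), but the intervals overlapped. In the control, the same class had 25.4% and 26%. Receptor and Ccl2 were thus found in 42.1% of Arg1-high macrophage-like barcodes, where the product of their shares is 41.8%.

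**Figure D4:**
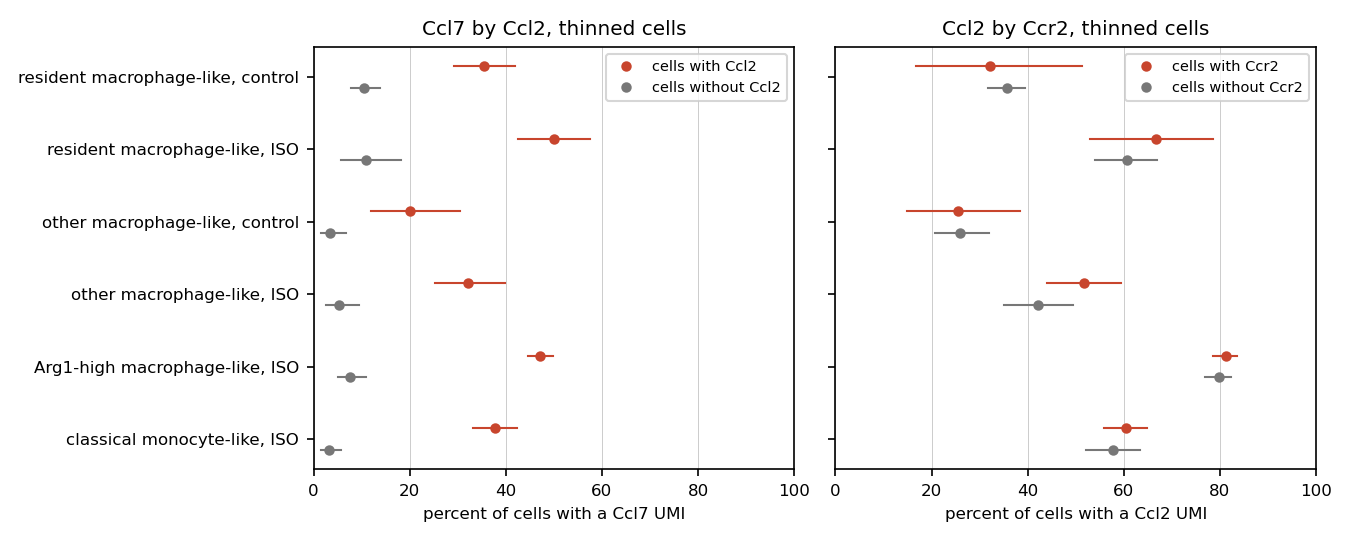
Percent of barcodes with a Ccl7 UMI among those with and without Ccl2 (left) and with a Ccl2 UMI among those with and without Ccr2 (right), after thinning to 1000 UMIs, with exact Clopper-Pearson 95% intervals. Cells with Ccl2 have Ccl7 more often in each class (47.2% against 7.61% in Arg1-high macrophage-like barcodes), whereas in the same class Ccl2 is in 81.2% of barcodes with Ccr2 and 79.7% of those without it.

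The level in the whole library depends on the size of each class (its share of all UMIs) and on the level within it. With the class sizes of the control and the class levels of the ISO library, the log2 ratio would be 2.72 for Ccl2, 1.88 for Ccl7, 1.15 for Ccl12, 1.32 for Ccr2, and -0.78 for Ccl8. With the class sizes of the ISO library and the levels of the control, it would be 1.67 for Ccr2, -0.48 for Ccl2, -0.82 for Ccl7, -0.58 for Ccl12, and -0.98 for Ccl8. These last values rest on the 6 Arg1-high macrophage-like barcodes of the control, which had 6 UMIs of Ccl2 and none of Ccl7. With all macrophage-like barcodes as 1 class, class sizes alone gave 0.70 for Ccr2, 0.46 for Ccl2, 0.43 for Ccl7, 0.54 for Ccl12, and 0.64 for Ccl8, so their direction for the ligands depended on the grouping. The values for class levels alone were 2.92 for Ccl2, 2.06 for Ccl7, 1.14 for Ccl12, 1.43 for Ccr2, and -0.92 for Ccl8 in this grouping, and their direction was the same.

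**Figure D5:**
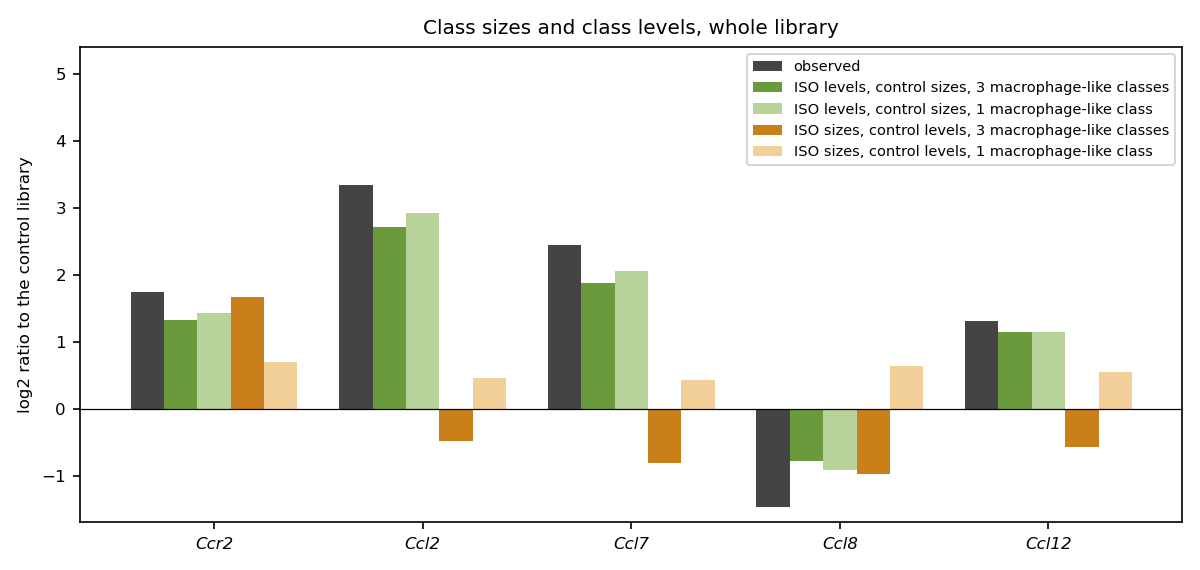
Log2 ratio of each gene to the control library as observed (dark), with ISO class levels and control class sizes (green), and with ISO class sizes and control class levels (orange), for 3 macrophage-like classes or for 1. For Ccl2, class levels alone give 2.72 and 2.92, and class sizes alone give -0.48 and 0.46.

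A list of other receptors of the ligands and of related atypical receptors was compared by the same steps. Whether each of them binds these ligands was not examined. Over all kept barcodes, 5 of the 8 genes of this list had at least 20 UMIs, and 2 of them, Ccr1 and Ccrl2, were at least 2-fold higher in the ISO library, beside 6.9% of all genes tested. Ccr1, a receptor of CCL7, was at 57.4 CPM and 322 CPM, and Ccrl2, an atypical receptor that does not signal like the others, at 237 CPM and 1470 CPM. Ccr1 was highest in neutrophil-like barcodes of the control (791 CPM), where Ccr2 was at 8.44 CPM, and in classical monocyte-like barcodes it was at 62.6 CPM without and 457 CPM with ISO. Ccr3 was at 0.888 CPM and 0.739 CPM and Ccr8, the main receptor of mouse CCL8, at 1.18 CPM (49 UMIs) and 0.667 CPM (37 UMIs). Ccr8 was at 24.3 CPM in ILC2-like barcodes of the control. Of the neighbors of the ligand genes, Ccl1, a ligand of CCR8, was at 117 CPM in ILC2-like barcodes of the control and 47.3 CPM in those of the ISO library, and Ccl11 had 13 UMIs in the control and 1 in the ISO library.

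Genes around the receptor and ligands in their pathway were counted in macrophage-like barcodes, where 8.8% of all genes tested were at least 2-fold higher and 22.7% at least 2-fold lower. Of 16 genes that signal below CCR2, 0 were at least 2-fold higher and 1 was lower, Pik3cg, the catalytic subunit of PI3Kγ (71.2 CPM and 32.97 CPM). Of 14 transcription factors known to act on Ccl2, Hif1a, the oxygen sensitive factor, was higher (58.2 CPM and 287 CPM), and Irf1 (214 CPM and 102 CPM) and the glucocorticoid receptor Nr3c1 (183 CPM and 68.5 CPM) were lower. Of 13 receptors and adaptors of cytokines known to raise Ccl2, Il1rap was higher (11.3 CPM and 25.7 CPM) and Il6ra lower (152 CPM and 72.5 CPM). Of 11 trafficking genes of monocytes, 3 were higher, the integrin subunits Itgam (206 CPM and 636 CPM) and Itgb2 (198 CPM and 471 CPM) and the receptor Ccr1 (69.6 CPM and 310 CPM), and 1 was lower, the fractalkine receptor Cx3cr1 (456 CPM and 64.5 CPM). The medians of the log2 ratios were -0.09 for the signaling list, -0.75 for the transcription factors, -0.13 for the cytokine receptors, and -0.03 for the trafficking genes, beside -0.29 for all genes tested.

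Over 41 points, each a class in 1 library, the genes most like each member in log2(CPM + 1) were named as a description. Ccl7 was most like Ccl12 (Pearson r = 0.92) and Ccl2 (0.91), and Ccl12 was most like Trem2 (0.93) and Ccl7. Ccl2 was most like Ms4a6d (0.93), the scavenger receptor Msr1 (0.92), the Fc receptor Fcgr1 (0.92), Il1a (0.92), and Cxcl2 (0.91). Stab1, Msr1, and Ier3 followed for Ccl7, and Ctsc, Msr1, and Cndp2 for Ccl12. Ccr2 had no ligand among its nearest genes, which were Fam105a (0.85), the potassium channel Kcnn4 (0.83), S100a4 (0.76), BC056474 (0.75), and Noc4l (0.75). The genes nearest to Ccl8 were Sorbs3 (0.80), Cyr61, Afap1l1, Colec12, and Sgce (0.77), and Ccl8 was at 0 in most of the points. The points share libraries and depth, and Trem2 and Fcgr1 are markers of the macrophage gate.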

How the data were processed

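Live CD45+ heart cells of 1 control and 1 ISO library, each from 3 pooled mice, were profiled with 10x 3' v3 chemistry. The authors deposited UMI counts per gene and barcode, made with bcl2fastq (2.19.1.403), UMI-tools (1.0.0), STAR (2.7.3a), and featureCounts (1.6.4) on mm10, as listed in the submitters' processing notes. Groups were taken from the sample titles, and since the labels give the ISO dose for both samples, the vehicle was taken from the methods of the study.

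Barcodes with over 500 and under 6000 genes and less than 25% of UMIs from mitochondrial genes were used, in Python (3.11.15), numpy (2.4.6), scipy (1.17.1), and pandas (2.3.3). Before this filter the control library held 47382455 UMIs and the ISO library 58495112. Gates used 22 marker lists as UMIs per 10000, with limits of 20 for macrophages, 5 for the resident list, 30 for the Arg1-high list, and 25 for classical monocytes, and classes are called by the gate with the ending -like. No doublet caller was run, and barcodes of more than 1 lineage were kept apart. Levels have exact Poisson intervals and shares exact Clopper-Pearson intervals, UMIs of a class are not independent across cells, and 3 UMIs or cells were the limit for a count of 0. Log2 ratios had 0.5 UMI added and were computed for classes with at least 20 barcodes in both libraries. Fold counts used genes with at least 20 UMIs. For shares, barcodes were thinned to 1000 UMIs, and 14 control barcodes were too shallow. The ratios and fold counts were tested on simulated gene sums, and the thinning was checked on barcodes of the control library.

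Genes named beside the members were list genes past 2-fold, genes of the list of other receptors, and the 5 genes with the highest correlation to each member among those with at least 100 UMIs. Values of 1 list gene are not reported here. The members and lists were chosen with earlier results of these data known. Positions are from GENCODE on GRCm38, and promoters from RefSeq. Alternatives numbered 18, and 7 were added after the data were seen.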

Additional observations from a re-analysis of the deposited data

How the results depend on the processing

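Of 103 comparisons of a value with an alternative, 41 stayed within a set band, 62 moved beyond it, and 0 changed direction, and the cause of the moves was not tested. The band was counting error, except for the percents of all genes past a fold, where it was a fixed fold. The class with most UMIs also counted as moved when it changed. For these percents and this class a change of direction could not be scored. In macrophage-like barcodes, the log2 ratios were 1.72 for Ccr2, 2.73 for Ccl2, 1.89 for Ccl7, and 0.50 for Ccl12 with no upper limit on genes, and 1.94 for Ccr2, 2.65 for Ccl2, and 1.72 for Ccl7 without the 5% deepest barcodes. They were 2.06 for Ccr2 and 0.22 for Ccl12 as the mean of CPM per cell, and 2.17 for Ccr2, 1.65 for Ccl7, -3.60 for Ccl8, and 0.18 for Ccl12 when cells were thinned before summing. With the B cell-like level subtracted they were 0.74 for Ccr2, 2.17 for Ccl2, 1.602 for Ccl7, and 0.30 for Ccl12. In the ISO library that level rests on 45 barcodes, and how much of it was free RNA was not tested. Gate limits at 2 times their value gave 2.87 for Ccl2, 1.98 for Ccl7, and 0.66 for Ccl12, and limits at 0.5 times gave 1.69 for Ccl7 and 0.21 for Ccl12. Barcodes of more than 1 lineage, when assigned to the dominant one, gave 2.88 for Ccl2, 2.02 for Ccl7, -1.79 for Ccl8, and 0.88 for Ccl12. Of the alternatives chosen after seeing the data, resident macrophage-like barcodes alone gave 1.68 for Ccr2, 1.83 for Ccl2, 1.02 for Ccl7, -1.92 for Ccl8, and 0.57 for Ccl12, and leaving the abundant gene Gm26924 out of the totals gave 2.63 for Ccl2, 1.72 for Ccl7, and 0.33 for Ccl12. In the whole library, leaving it out gave 1.68 for Ccr2, 3.28 for Ccl2, 2.39 for Ccl7, and 1.25 for Ccl12, and leaving out barcodes of more than 1 lineage gave 1.66 for Ccr2, 3.79 for Ccl2, 2.84 for Ccl7, -1.88 for Ccl8, and 1.402 for Ccl12.

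The ratio of the ISO to the control share of macrophage-like cells with a UMI was 4.92 for Ccr2, 2.29 for Ccl2, and 2.32 for Ccl7 at 1000 UMIs. It was 3.87, 2.89, and 2.85 at 500 UMIs and 3.59, 1.56, and 1.81 without thinning, and for Ccl2 it was 1.87 at 2000 UMIs. At 1.5-fold, 17.0% of genes were higher and 37.4% lower. With barcodes assigned to the dominant lineage, the class with most UMIs in the control was other macrophage-like for Ccr2 (27.2%) in place of ILC2-like, and stayed resident macrophage-like for Ccl2 (69.2%), Ccl7 (79.6%), Ccl8 (90.2%), and Ccl12 (69.8%). In the ISO library it stayed Arg1-high macrophage-like for Ccr2 (46.8%), Ccl2 (60.5%), Ccl7 (62.6%), and Ccl12 (53.3%), and became resident macrophage-like for Ccl8 (40.9%). No paired analysis was possible because each group has 1 library, which also leaves no replicate to leave out.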
